A study of Mus musculus with 9 samples.

Results

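Interferon-stimulated genes are the genes that a cell switches on when interferon reaches its surface. 45 of them, listed by symbol, were looked up in the count table of the series, which held 46095 gene symbols. All 45 were present, and all were among the 14593 genes kept for the tests after removal of weakly counted ones. The RNA came from intestinal epithelial cells (IECs) released from mouse colon with EDTA. The Smad4Vil-KO genotype (Smad4-knockout in the labels) gave 4 libraries, and Smad4Vil-KO;Setd2Vil-KO (Smad4-knockout;Setd2-knockout), called double knockout here, gave 5. Every library carried the Smad4 deletion, so the comparison asks what the added loss of Setd2, the gene of a histone methyltransferase, changed in cells that already lacked Smad4. Cre recombinase driven by the Villin promoter made the deletions, and therefore acted in the intestinal epithelium and not in leukocytes or stroma. All mice were on the C57BL/6j background and had received the carcinogen azoxymethane (AOM, 10 mg/kg, at 8 weeks of age) and 2% dextran sulphate sodium (DSS), an agent that injures the colonic lining, and IECs were collected at day 10. Libraries with intact Smad4, with Setd2 lost alone or without AOM/DSS were not analysed here. The labels do not say whether every library came from a separate animal, and p-values here measure the spread between these libraries, which may be partly technical.

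Type I and type III interferons bind receptors that engage the kinases JAK1 and TYK2. These phosphorylate STAT proteins, STAT2 among them, which join IRF9 and bind the interferon-stimulated response element (ISRE) in front of their target genes. Interferon gamma acts at the gamma-activated sequence (GAS). The products of the target genes sense foreign RNA, block translation, degrade RNA, attack pathogen vacuoles and feed back on the pathway, and colonic epithelial cells respond mainly to type III interferon.

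The promoters were searched for the letters of both elements. RefSeq promoter windows (GRCm38.p6, 250 bases before to 50 bases after the start) were matched for 36 of the 45 genes. The others were Mx1, Usp18, Mx2, Zbp1, Parp14, Rtp4, Dhx58, Oas2 and Parp9. The ISRE letters GAAANNGAAA, or TTTCNNTTTC on the other strand, were found in 18 of the 36 genes and in 3.99% of all 27025 symbols with a window. The GAS letters TTCNNNGAA, which read alike on both strands, were found in 10 of the 36 genes and in 9.55% of all symbols. These are matches of letters, and binding was not measured. 6 stretches are shown because the genes behind them differ in how they behaved across the double-knockout libraries, as described further on. Each gives the 180 bases before the start, 5′ to 3′ on the strand of the gene, with ISRE and GAS letters in capitals.

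Ifit1 (chr19:34640709-34640888, plus strand): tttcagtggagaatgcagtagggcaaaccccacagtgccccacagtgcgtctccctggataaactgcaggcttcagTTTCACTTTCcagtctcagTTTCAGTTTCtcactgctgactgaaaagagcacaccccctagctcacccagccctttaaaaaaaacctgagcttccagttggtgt

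Ifit3 (chr19:34583349-34583528, plus strand): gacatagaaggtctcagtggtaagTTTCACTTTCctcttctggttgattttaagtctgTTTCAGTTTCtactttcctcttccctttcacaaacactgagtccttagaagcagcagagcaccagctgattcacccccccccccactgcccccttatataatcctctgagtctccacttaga

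Isg15 (chr4:156200819-156200998, minus strand): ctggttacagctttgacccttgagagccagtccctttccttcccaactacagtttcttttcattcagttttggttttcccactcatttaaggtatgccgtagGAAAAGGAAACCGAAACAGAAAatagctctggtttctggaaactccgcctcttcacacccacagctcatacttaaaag

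Rsad2 (chr12:26456453-26456632, minus strand): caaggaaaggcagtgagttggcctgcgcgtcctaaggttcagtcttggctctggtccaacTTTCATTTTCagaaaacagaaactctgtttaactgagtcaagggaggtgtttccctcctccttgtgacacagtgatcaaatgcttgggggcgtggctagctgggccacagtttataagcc

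Oas1a (chr5:120907526-120907705, minus strand): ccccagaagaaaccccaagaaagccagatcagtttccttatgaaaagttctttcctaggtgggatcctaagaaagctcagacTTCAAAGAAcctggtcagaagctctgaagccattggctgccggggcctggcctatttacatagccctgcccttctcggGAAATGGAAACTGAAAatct

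Irf8 (chr8:120736178-120736357, plus strand): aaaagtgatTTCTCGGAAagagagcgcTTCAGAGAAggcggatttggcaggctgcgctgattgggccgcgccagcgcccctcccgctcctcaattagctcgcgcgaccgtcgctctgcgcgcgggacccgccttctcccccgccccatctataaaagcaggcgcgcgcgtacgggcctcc

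Ifit1 and Ifit3, both on chromosome 19, each held 2 ISRE matches on the other strand. The matches in Ifit1 lay 104 to 95 and 85 to 76 bases before the start, and those in Ifit3 lay 156 to 147 and 122 to 113 bases before it. The Isg15 stretch held 3 ISRE matches that overlap each other, between 78 and 57 bases before the start. Rsad2 held 1 match, 120 to 111 bases before the start. Oas1a held 2 overlapping ISRE matches between 20 and 5 bases before the start and a GAS match at 98 to 90. Irf8 held 2 GAS matches, at 171 to 163 and at 153 to 145 bases before the start, and no ISRE match in its window. The Ifit2 window held GAS letters and no ISRE letters.

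The libraries held 12487129 to 17120202 counts, and after scaling to library size 1 count was worth 0.0594 to 0.0794 CPM, the normalised count used throughout. Setd2 was at 118, 120.1, 99.2 and 114 CPM in Smad4Vil-KO libraries 1 to 4 and at 57.8, 87.1, 55.7, 53.9 and 76.1 CPM in double-knockout libraries 1 to 5, so that all 5 double-knockout libraries were below the others (log2 fold change -0.77 ± 0.14 (SE), adjusted p = 0.00756, quasi-likelihood test of edgeR, Benjamini-Hochberg adjusted). Smad4 was at 54.3 to 92.7 CPM and 38.2 to 114 CPM in the 2 genotypes. Transcripts from outside the deleted exons can still be counted for both genes. Double-knockout libraries 1, 2 and 5 held 4907, 4745 and 3857 counts of 4 Y-linked genes (Ddx3y, Eif2s3y, Kdm5d and Uty), libraries 3 and 4 held 28 and 0, and no Smad4Vil-KO library held more than 1. Eif2s3y was the 1 of the 4 with enough counts to be tested and was higher in the double knockout (adjusted p = 0.0148, edgeR). Xist, the RNA of the inactive X chromosome of females, had 5, 6 and 5 counts in libraries 1, 2 and 5 and 17833 to 26617 in the other 6 libraries. The labels give no sex, and the effects of genotype and sex cannot be told apart in libraries 1, 2 and 5. Double-knockout libraries 1 and 2 stood apart in composition as well. Mitochondrial genes took 5.62% and 6.29% of their counts, against 8.12% to 10.3% in the other 7, with the top of that range in double-knockout library 3. The 10 most counted genes took 8.55% and 9.70%, against 12.2% to 13.3%. In bulk RNA, more cells that express a gene and more RNA per cell cannot be told apart either.

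Of the 45 interferon-stimulated genes, 5 rose in the double knockout and 0 fell (adjusted p under 0.05, quasi-likelihood test of edgeR, Benjamini-Hochberg adjusted). The share among all 14593 genes was 6.76% higher and 6.54% lower. At an unadjusted p under 0.05, 17 of the 45 were higher and 0 lower, against 15.3% of all genes in each direction. DESeq2 called 8 higher and 0 lower (10% and 9.12% of all genes, adjusted p under 0.05). The fitted change was positive for 42 of the 45, against 50% of all genes. The median log2 fold change was 0.61 over the 45 genes and -0.00060 over all genes tested. The 5 that rose were Ifit1, Ifit2, Ifit3, Irf8 and Tbk1. With Smad4Vil-KO library 1, 2, 3 or 4 left out, Irf8 was the 1 gene of the 45 called higher and 0 were lower. In those fits 3.41%, 4.02%, 3.06% and 4.16% of all genes were higher and 3.41%, 4.06%, 2.64% and 3.77% lower. Without double-knockout library 3, 13 of the 45 were higher and 0 lower (5.94% and 5.14% of all genes). A term for Y-linked counts, meaning more than 100 in a library, gave 1 higher, Irf8, and 4 lower (4.47% and 4.33% of all genes). The libraries without such counts gave 3 higher and 19 lower (9.29% and 10.1% of all genes). No Smad4Vil-KO library carried such counts, so in both fits the genotype difference rests on double-knockout libraries 3 and 4. The fits are therefore not separate checks. In them 12 and 13 of the 45 had a positive change, and 17 had one without double-knockout libraries 1 and 2. The median log2 fold change was negative in each.

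The IFIT proteins bind viral RNA and keep it from being translated. The 3 genes lie on chromosome 19 (GRCm38, Ifit2 at chr19:34550694-34576419, Ifit3 at chr19:34583531-34588731 and Ifit1 at chr19:34640871-34650009, all on the plus strand). Ifit1 was at 99.96, 88.7, 85.4 and 96.0 CPM in the 4 Smad4Vil-KO libraries and at 586, 894, 120.4, 204 and 225 CPM in the 5 double-knockout libraries. All 5 were above the Smad4Vil-KO range, with library 3 at 1.30 times and library 2 at 9.67 times the Smad4Vil-KO mean. The log2 fold change was 2.13 ± 0.52 (SE), with an adjusted p of 0.0224 (edgeR). The call was lost without any 1 Smad4Vil-KO library and with a term for Y-linked counts.

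Ifit2 was at 94.1, 183, 114 and 194 CPM in the Smad4Vil-KO libraries and at 1276, 2029.6, 149, 309 and 326 CPM in the double-knockout libraries. Library 3 lay inside the Smad4Vil-KO range, at 1.02 times its mean, and library 2 at 13.9 times. The log2 fold change of Ifit2 was 2.48 ± 0.70 (SE), with an adjusted p of 0.0406 (edgeR). Its call was lost in 11 of 20 other fits, namely the 5 named for Ifit1, without double-knockout library 1, library 2 or both, in the libraries without Y-linked counts, with limma-voom and with the replicate number as a block.

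Ifit3 was at 19.8, 18.7, 26.8 and 22.8 CPM and at 352, 470.2, 24.3, 42.3 and 42.3 CPM in the same order. Libraries 1 and 2 stood at 15.99 and 21.4 times the Smad4Vil-KO mean, libraries 4 and 5 both at 1.92 times, and library 3 lay inside the range. Its log2 fold change of 3.08 ± 0.87 (SE), adjusted p 0.04 (edgeR), was the largest of the 45. The call was lost in 10 of the 20, the fits named for Ifit2 except that without both double-knockout libraries 1 and 2. Related copies exist for these genes (Ifit1bl1 for Ifit1, Ifit3b for Ifit3), and the counting could have split reads between them.

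Irf8 encodes a transcription factor of the interferon regulatory family, known mainly from myeloid cells and induced by interferon gamma (chr8:120736358-120756694, plus strand). Irf8 was at 86.1, 117, 103 and 97.4 CPM in the Smad4Vil-KO libraries and at 176, 208, 136, 164 and 145 CPM in the double-knockout libraries. The genotypes did not overlap, and the spread within the double knockout was small, with the highest library 1.53 times the lowest. The log2 fold change was 0.72 ± 0.13 (SE), adjusted p 0.00706 (edgeR). Of 20 leukocyte markers none was at 0 in all libraries, 18 were tested and 0 passed, and their summed CPM was 82.5 to 202 in Smad4Vil-KO and 139, 148, 122, 164 and 66.2 in double-knockout libraries 1 to 5. Of the 18, 11 had a positive fitted change and their median log2 fold change was 0.17. The myeloid and dendritic markers of the list had fitted changes of both signs, with log2 fold changes of -0.92 for Lyz2, -0.96 for Adgre1, -0.26 for Cd68, -0.18 for Flt3, -0.10 for Csf1r, 0.07 for Itgax, 0.62 for Itgam, 1.05 for Siglech, 1.26 for S100a8 and 1.53 for S100a9, and the lowest adjusted p among them was 0.125, for Siglech (edgeR). The part of leukocytes in the Irf8 result was not tested.

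Tbk1 encodes the kinase that phosphorylates IRF3 and IRF7 and so starts interferon production (chr10:121546455-121586787, minus strand). It was at 68.8, 72.7, 65.8 and 68.8 CPM in the Smad4Vil-KO libraries and at 121, 152, 80.5, 95.8 and 83.4 CPM in the double-knockout libraries. The lowest double-knockout library was 80.5 CPM and the highest Smad4Vil-KO library 72.7 CPM. The log2 fold change was 0.62 ± 0.17 (SE), adjusted p 0.0372 (edgeR). The Tbk1 call was lost without any 1 Smad4Vil-KO library, without double-knockout library 1 or 4 and with a term for Y-linked counts.

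**Figure D1:**
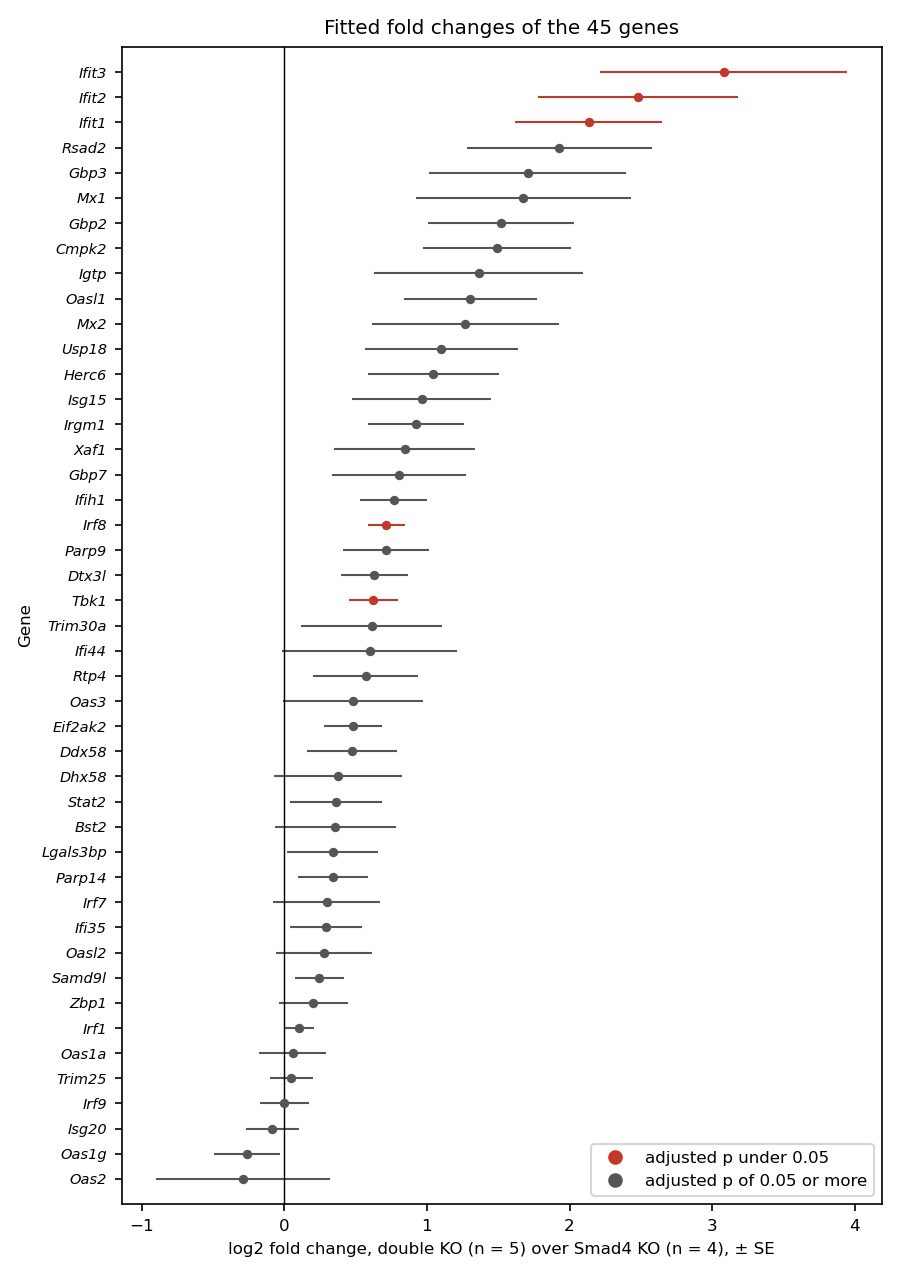
Fitted log2 fold change of each of the 45 genes, double knockout (n = 5) over Smad4Vil-KO (n = 4), with bars of 1 SE. Red points mark the 5 genes with an adjusted p under 0.05, and 42 of the 45 points lie right of 0, with wide bars on Ifit3 (SE 0.87) and a narrow one on Irf8 (SE 0.13).

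Behind these means the 5 double-knockout libraries went different ways. In library 1, 44 of the 45 genes were above all 4 Smad4Vil-KO libraries and 0 were below them (35.6% and 36.8% of all genes tested). In library 2 the counts were also 44 and 0 (33.7% and 35.1%). In library 3 only 3 genes were above and 34 were below (30.3% and 32.6%). Library 4 had 10 above and 26 below (31% and 32.5%), and library 5 had 24 above and 3 below (26.5% and 27.2%). Over all genes tested, the shares above and below were close to each other in every library. Libraries 1, 2 and 5, those with Y-linked counts, had more of the 45 genes above than below, and libraries 3 and 4 more below than above. The lowest mitochondrial shares of the 9 were those of libraries 1 and 2, and the highest that of library 3. The part of sex and of library composition in this pattern was not tested. The fits with Y-linked counts set libraries 1, 2 and 5 apart as a group and cannot tell sex from their other traits.

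**Figure D2:**
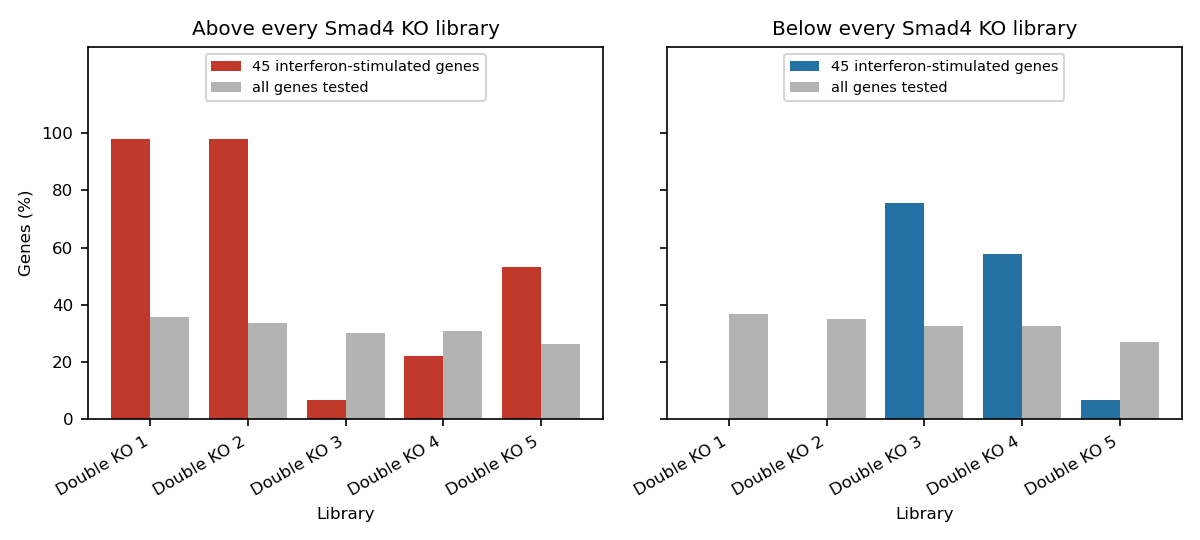
Share of genes (%) in each double-knockout library that lay above (left) or below (right) all 4 Smad4Vil-KO libraries, for the 45 interferon-stimulated genes (coloured bars) and for all 14593 genes tested (grey bars). Libraries 1 and 2 have 44 of 45 genes above, and libraries 3 and 4 have 34 and 26 of 45 below, while the grey bars stay between 26.5% and 36.8%.

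The median distance of the 45 genes from the Smad4Vil-KO mean, on the log2 scale, was 1.05 in library 1, 1.35 in library 2, -0.44 in library 3, -0.27 in library 4 and 0.20 in library 5. Among the Smad4Vil-KO libraries it stayed between -0.07 and 0.09. The CPM of the 45 genes added up to 5049, 4659, 4551 and 4792 in the Smad4Vil-KO libraries and to 10872, 14096, 3487, 4552 and 5628 in the double-knockout libraries. Library 3 had the lowest sum of the 9 and library 2 the highest. Library 4 was within 1 CPM of the lowest Smad4Vil-KO sum.

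The order of the double-knockout libraries was much the same from gene to gene. Library 2 was the highest of all 9 libraries for 43 of the 45 genes (14.5% of all genes), the others being Igtp and Isg20, which were highest in library 1. Library 3 was the lowest of 9 for 30 genes (11.6% of all genes). Library 5 lay above libraries 3 and 4 and below libraries 1 and 2 for 40 genes (8.41% of all genes). Libraries 1 and 2 were both above the Smad4Vil-KO range for 43 genes (25.6% of all genes), and libraries 3 and 4 were both below it for 26 (23.8%). For 24 genes both held at once, against 2.04% of all genes tested. Genes of 1 pathway are not independent observations, and no test was made on these counts.

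The ratio of the highest to the lowest library was wider in the double knockout than in Smad4Vil-KO for 45 of 45 genes and for 78% of all genes tested. Its median over the 45 genes was 1.28 in Smad4Vil-KO and 4.55 in the double knockout. Over all genes tested the medians were 1.28 and 1.55. In the double knockout the ratio ran from 1.46 for Irf1 to 19.4 for Ifit3.

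**Figure D3:**
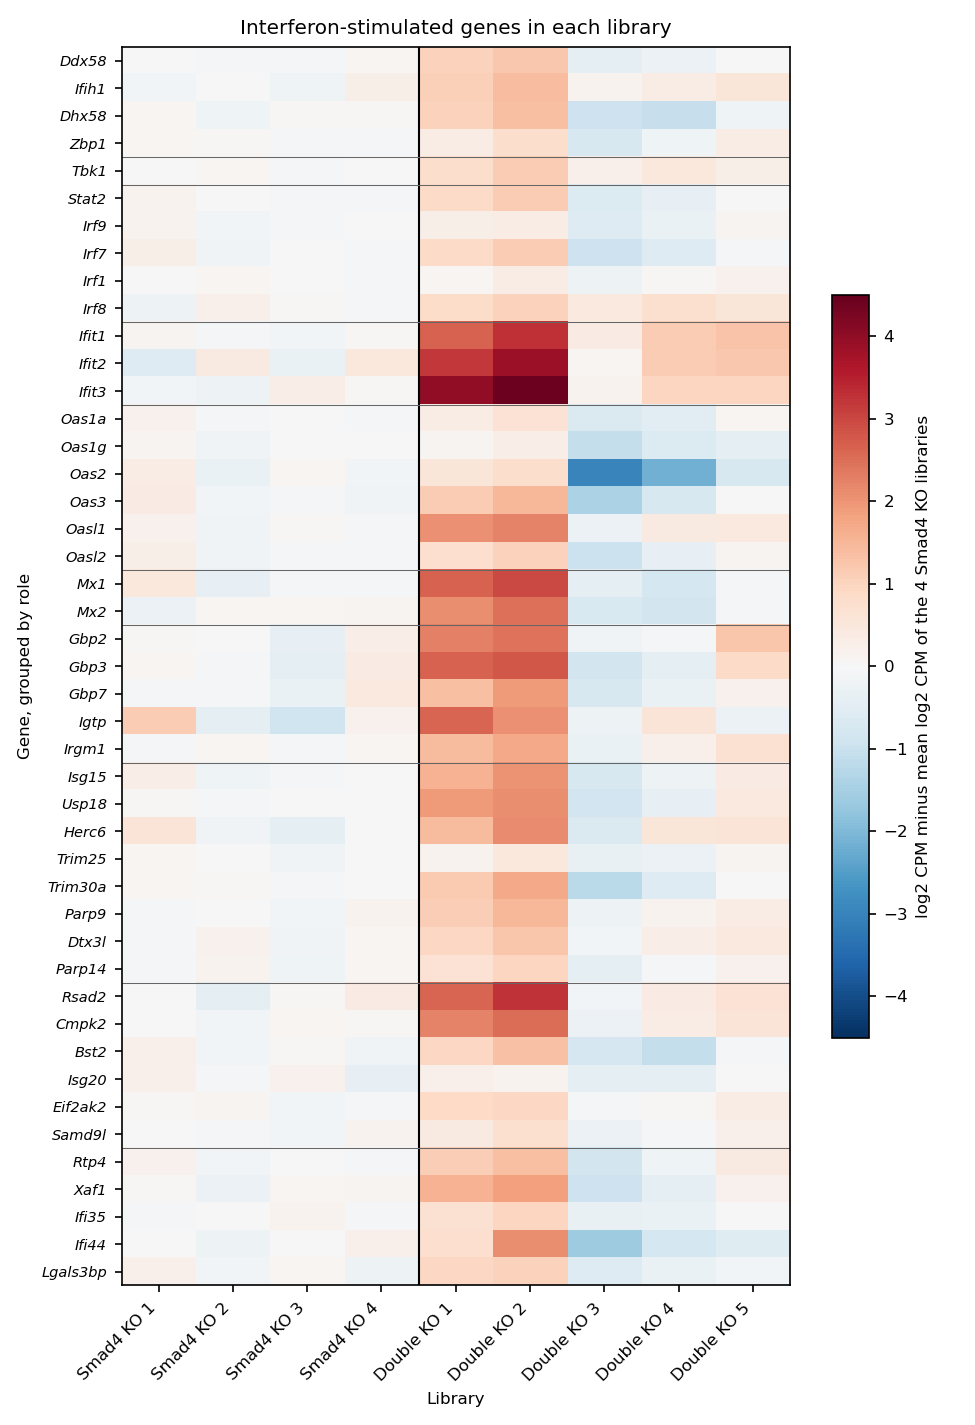
Each of the 45 genes (rows, grouped by role) in each of the 9 libraries (columns), as log2 CPM minus the mean log2 CPM of the 4 Smad4Vil-KO libraries. Red is above and blue below that mean, and the median column value is 1.05 and 1.35 in double-knockout libraries 1 and 2 and -0.44 and -0.27 in libraries 3 and 4.

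Sorted by how many double-knockout libraries were above the Smad4Vil-KO range, the genes form a series. Above it in all 5 libraries were 3 genes, Tbk1, Irf8 and Ifit1 (8.34% of all genes), and 0 of 45 were below it in all 5 (8.87% of all genes). Above it in 4 libraries were 7 genes (8.31% of all genes for any 4). Ifih1, Ifit2, Ifit3 and Dtx3l had library 3 inside the range, and Oasl1, Irgm1 and Cmpk2 had library 3 below it. Above it in 3 libraries, in each case 1, 2 and 5, were 14 genes (11.4% of all genes for any 3). Gbp2, Rsad2 and Eif2ak2 had no library below the range, Irf1, Parp9, Parp14 and Samd9l had library 3 below it, and Zbp1, Gbp3, Isg15, Usp18, Trim25, Rtp4 and Xaf1 had libraries 3 and 4 below it. Above it in libraries 1 and 2 alone were 19 genes (15.4% of all genes for any 2), and 15 of them had libraries 3 and 4 below and library 5 inside the range (Ddx58, Dhx58, Stat2, Irf9, Irf7, Oas1a, Oas3, Oasl2, Mx1, Mx2, Gbp7, Trim30a, Bst2, Ifi35 and Lgals3bp). Igtp had no library below, Herc6 had library 3 below, and Oas2 and Ifi44 had libraries 3, 4 and 5 all below. Above it in 1 library were 2 genes, Isg20 (library 1) and Oas1g (library 2), against 17.3% of all genes for any 1.

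**Figure D4:**
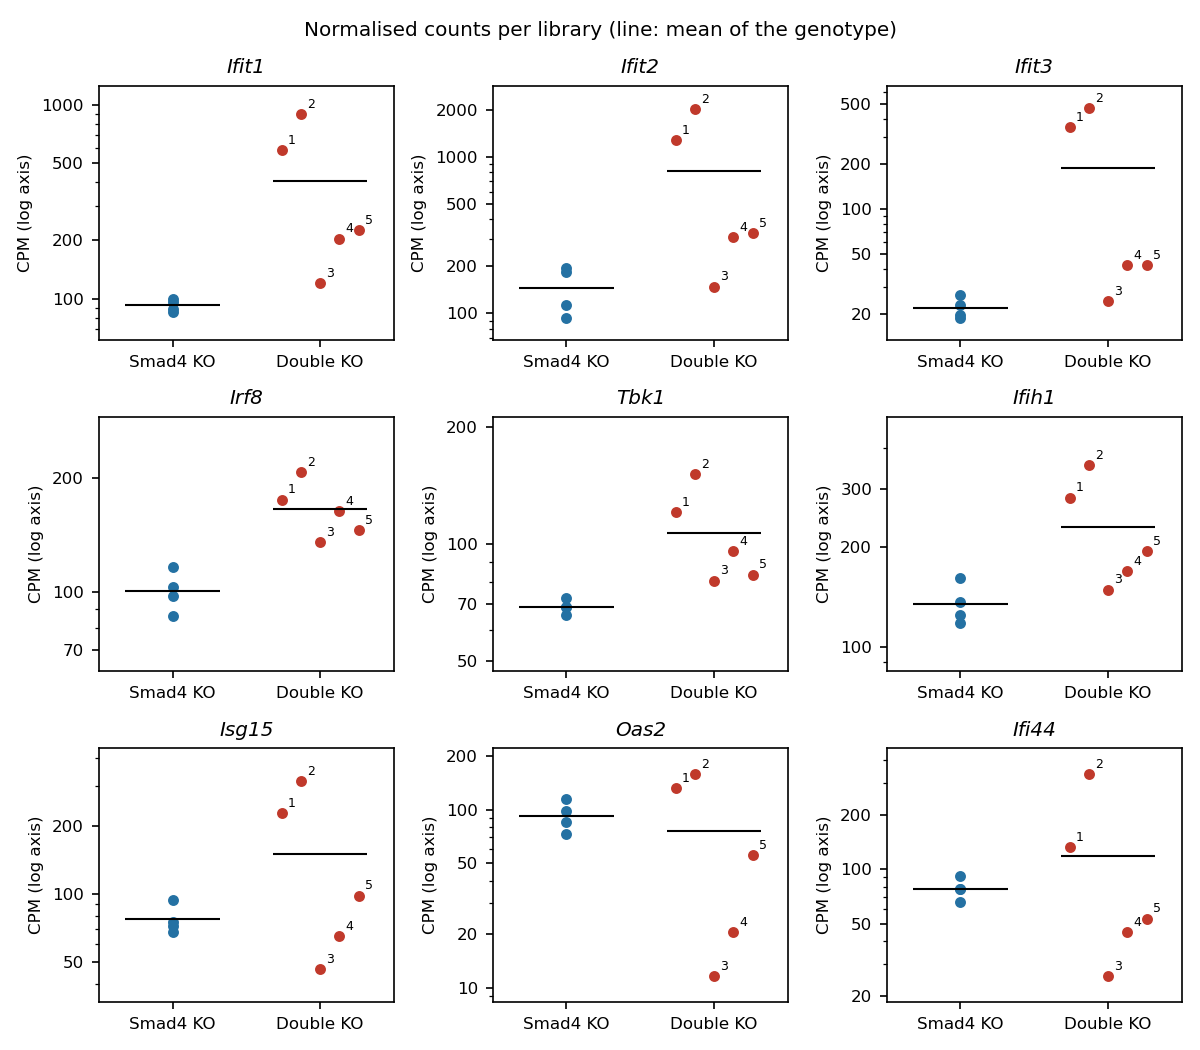
CPM per library on log axes for 9 of the genes, with Smad4Vil-KO libraries in blue, double-knockout libraries in red with their replicate number, and a line at the mean of each genotype. Irf8, Tbk1 and Ifit1 show no overlap between the genotypes, while Oas2 and Ifi44 have double-knockout libraries 1 and 2 above and 3, 4 and 5 below the Smad4Vil-KO libraries.

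The RNA sensors are the products that recognise viral nucleic acid, and 0 of 4 passed the test. Ifih1, which encodes the long double-stranded RNA sensor MDA5, was nearest to it, with 125, 136, 118 and 161 CPM in Smad4Vil-KO and 282, 353, 149, 169 and 195 CPM in the double knockout (log2 fold change 0.77 ± 0.24 (SE), adjusted p = 0.0542, edgeR). Only library 3 of the double knockout lay inside the Smad4Vil-KO range. Ddx58, the gene of the sensor RIG-I, had double-knockout values of 129.98, 148, 48.7, 52.9 and 64.2 CPM around a Smad4Vil-KO range of 61.1 to 67.5 CPM. Dhx58, whose product LGP2 modulates both sensors, was at 102, 125, 25.9, 24.2 and 43.2 CPM against 42.9 to 52.9 CPM. Zbp1, the sensor of Z-form nucleic acid that can start necroptosis, was at 125, 174, 59.9, 86.9 and 127 CPM against 94.8 to 106 CPM. In the latter 3 genes libraries 3 and 4 were below every Smad4Vil-KO library.

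Among the 5 transcription factors only Irf8 passed the test. Stat2 and Irf9, partners in the complex that binds the ISRE, had log2 fold changes of 0.36 ± 0.32 (SE) and 0.00 ± 0.17 (SE) with adjusted p of 0.469 and 0.998 (edgeR). In Irf9, libraries 1 and 2 above and 3 and 4 below the range left the mean where it was, at 96.2, 103, 53.9, 65.3 and 87.6 CPM in the 5 libraries and 81.1 CPM on average in both genotypes. Irf7, the factor that amplifies interferon transcription, was at 491, 597, 139, 178 and 253 CPM against 238 to 323 CPM. Irf1, which drives many interferon gamma targets, had the narrowest spread of the 45, with 269, 315, 215, 261 and 288 CPM against 243 to 268 CPM.

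The oligoadenylate synthetases make the second messenger that activates RNase L, and 0 of 6 genes of this family passed the test. Oas2 had 114, 73.4, 98.3 and 84.9 CPM in Smad4Vil-KO and 133, 159, 11.6, 20.5 and 55.8 CPM in the double knockout. Libraries 3 and 4 stood at 0.125 and 0.221 times the Smad4Vil-KO mean and libraries 1 and 2 at 1.43 and 1.71 times, and the fitted log2 fold change of -0.29 ± 0.61 (SE) had an adjusted p of 0.783 (edgeR). Oas1g, at 89.9, 102, 39.2, 53.8 and 63.5 CPM against 75.5 to 91.6 CPM, also had libraries 3, 4 and 5 below the range. Oas1a, whose ISRE letters lie next to the start, was at 185, 226, 91.5, 103 and 154 CPM against 135 to 166 CPM. Oas3 was at 213, 268, 35.5, 58.0 and 97.1 CPM against 85.8 to 122 CPM, and Oasl2 at 459, 550.2, 137, 207 and 295 CPM against 243 to 327 CPM. The member of the family farthest up was Oasl1, a regulator of Irf7 translation, at 285, 316, 56.5, 90.3 and 91.7 CPM against 60.3 to 76.9 CPM (log2 fold change 1.31 ± 0.47 (SE), adjusted p = 0.0879, edgeR). Oas1a and Oas1g are near-identical, and their counts are uncertain where reads could be split.

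The Mx GTPases trap viral nucleocapsids, although Mx1 of C57BL/6 mice is known to carry a deletion that leaves no working protein, and Mx2 is annotated as a polymorphic pseudogene. Mx1 was at 44.8, 24.5, 30.8 and 30.4 CPM in Smad4Vil-KO and at 200.04, 249, 23.8, 18.3 and 29.9 CPM in the double knockout. Libraries 1 and 2 were at 6.13 and 7.64 times the Smad4Vil-KO mean and libraries 3 and 4 below every Smad4Vil-KO library, which gave a log2 fold change of 1.68 ± 0.75 (SE) and an adjusted p of 0.16 (edgeR). Mx2 was at 8.34, 10.6, 10.6 and 10.8 CPM in Smad4Vil-KO and 43.3, 56.4, 6.22, 5.58 and 9.62 CPM in the double knockout, and library 4 was again the lowest of the 9.

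The guanylate-binding proteins and the IRG GTPases coat and rupture the vacuoles of intracellular pathogens and answer strongly to interferon gamma, and 0 of 5 passed the test. Gbp2 was at 31.8, 30.2, 23.6 and 37.6 CPM in Smad4Vil-KO and 147, 164, 27.1, 28.9 and 73.0 CPM in the double knockout. Libraries 1, 2 and 5 were above and libraries 3 and 4 inside the range (log2 fold change 1.52 ± 0.51 (SE), adjusted p = 0.0745, edgeR). Gbp3 was at 24.9, 22.5, 17.4 and 30.01 CPM in Smad4Vil-KO and 149, 164, 13.1, 17.3 and 42.3 CPM in the double knockout and had a highest library 12.5 times the lowest. Gbp7 was at 109, 161, 26.3, 34.7 and 49.7 CPM against 35.0 to 58.4 CPM, and Irgm1 at 253, 307, 77.8, 112 and 151 CPM against 89.0 to 102 CPM. Igtp had few counts, at 0.307 to 1.67 CPM in Smad4Vil-KO and 4.87, 3.27, 0.559, 1.10 and 0.543 CPM in the double knockout. Gbp genes are close copies of one another, so single values are uncertain.

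Isg15 encodes a ubiquitin-like protein that is attached to other proteins. It was at 93.4, 67.6, 72.0 and 75.3 CPM in Smad4Vil-KO and at 227, 315, 46.4, 65.0 and 98.0 CPM in the double knockout, with libraries 1, 2 and 5 above and 3 and 4 below the Smad4Vil-KO range (log2 fold change 0.96 ± 0.49 (SE), adjusted p = 0.207, edgeR). Usp18, which removes ISG15 and damps the receptor, was at 136, 155, 20.1, 27.8 and 49.7 CPM against a narrow 35.0 to 37.9 CPM. Herc6, the mouse ligase for ISG15, was at 74.6, 122, 17.5, 40.2 and 41.5 CPM against 20.1 to 41.8 CPM. Dtx3l and Parp9, a ligase and its ADP-ribosyltransferase partner encoded head to head, were at 282, 356, 138, 184 and 201 CPM and 351, 449, 138, 178 and 205 CPM, and Smad4Vil-KO ranges were 133 to 169.8 CPM and 148 to 179 CPM. Parp14, a further ADP-ribosyltransferase, and Trim30a and Trim25, ubiquitin ligases, had log2 fold changes of 0.34, 0.61 and 0.05. None of the 8 genes of this system passed the test, and the lowest adjusted p was 0.0987, for Dtx3l (edgeR).

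Rsad2, the gene of viperin, which makes a chain-terminating nucleotide, and its chromosomal neighbour Cmpk2, a nucleotide kinase, lie on chromosome 12. Rsad2 was at 29.5, 21.4, 30.6 and 38.3 CPM in Smad4Vil-KO and 180.5, 277, 26.8, 38.1 and 45.8 CPM in the double knockout. Libraries 1 and 2 were at 6.03 and 9.27 times the Smad4Vil-KO mean, library 5 was above the range, and libraries 3 and 4 were inside it (log2 fold change 1.93 ± 0.65 (SE), adjusted p = 0.0744, edgeR). Cmpk2 was at 179.9, 217, 31.7, 48.2 and 56.2 CPM against 34.6 to 40.0 CPM. Bst2, which tethers budding virus, was at 91.7, 118, 28.3, 22.7 and 46.1 CPM against 42.6 to 55.4 CPM, with library 4 the lowest of the 9. Eif2ak2, the kinase PKR that stops translation, and Samd9l had log2 fold changes of 0.48 and 0.25. Isg20, an exonuclease, was at 14.9, 12.004, 14.5 and 9.84 CPM and 14.9, 14.2, 9.37, 9.44 and 12.5 CPM, with library 1 above and libraries 3 and 4 below the Smad4Vil-KO range, each by less than 1 CPM.

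Of 5 further members with less settled roles, 0 passed the test. Ifi44 was at 77.6, 65.7, 77.3 and 91.6 CPM in Smad4Vil-KO and at 132, 334, 25.7, 44.8 and 53.3 CPM in the double knockout, where library 2 was 4.28 and library 3 0.329 times the Smad4Vil-KO mean. Xaf1, a pro-apoptotic gene, was at 105, 128, 18.7, 26.7 and 40.2 CPM against 29.6 to 38.2 CPM. Rtp4 was at 116, 136, 29.9, 46.1 and 69.8 CPM against 48.8 to 61.7 CPM, and Ifi35 at 76.2, 92.2, 37.3, 38.8 and 47.8 CPM against 44.97 to 52.5 CPM. Lgals3bp, a secreted glycoprotein gene, was at 993, 1082, 351, 427 and 475 CPM against 446 to 616 CPM.

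Among the 45 genes, the most abundant transcript per kilobase of annotated exon in Smad4Vil-KO IECs was Lgals3bp, with 185 CPM per kb. It was followed by Isg15 (102), Oas1a (77.3), Irf7 (71.5) and Irf1 (63.0). Igtp was lowest, with 0.401, before Mx2, with 2.79 CPM per kb. Ifit3 ranked low in Smad4Vil-KO, at 12.6 CPM per kb, and reached 269 in its highest double-knockout library, where Ifit2 reached 517. All 45 genes were matched in the GENCODE M21 annotation of GRCm38, on 14 chromosomes, and 44 were annotated as protein-coding. No gene shared 50% or more of its exon bases with another gene.

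The ligands could scarcely be seen. Of 10 interferon genes 0 had enough counts to be tested, and they held 91 counts in all 9 libraries together. Ifna1 and Ifna5 had 0 counts in every library, and a count of 0 allows up to 3 in a library by counting error alone. Ifnb1 had 2, Ifna2 7, Ifne 1 and Ifnl2 1 count, all in double-knockout library 2, and Ifna4 had 1 and 3 counts in libraries 1 and 2. Ifnl3 had 3 counts in each of libraries 1 and 2 and 1 in Smad4Vil-KO library 3, where Ifnk had its 1 count. Ifng, made by lymphocytes, had 4, 1, 5 and 0 counts in Smad4Vil-KO and 32, 15, 1, 10 and 0 in the double knockout. No test was made on these counts.

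The 6 receptor genes were all tested and 0 passed. Ifnlr1, the specific chain of the type III receptor, was at 21.7, 27.5, 28.6 and 29.1 CPM and 28.3, 29.2, 31.6, 27.8 and 25.0 CPM in the 2 genotypes. Its partner Il10rb, the type I chains Ifnar1 and Ifnar2 and the gamma chains Ifngr1 and Ifngr2 had log2 fold changes of 0.12, 0.17, 0.28, -0.05 and -0.13. Of 11 genes of the JAK-STAT pathway and its inhibitors, 1 rose and 1 fell (6.76% and 6.54% of all genes). Ptpn6, the phosphatase SHP-1, was at 30.5, 39.9, 37.8 and 34.2 CPM and 54.0, 49.3, 54.3, 56.5 and 51.9 CPM (log2 fold change 0.58 ± 0.09 (SE), adjusted p = 0.00369, edgeR). Irf2bp2, a co-repressor that binds IRF2, fell from 108, 103, 108 and 103 CPM to 78.3, 83.7, 66.4, 70.9 and 77.8 CPM (log2 fold change -0.48 ± 0.08 (SE), adjusted p = 0.00416, edgeR). For both genes no double-knockout library overlapped the Smad4Vil-KO range (8.34% of all genes lay above it in all 5 libraries and 8.87% below it). Ifnar1 and Irf2, which did not pass the test, also lay above it in all 5. Jak1, Jak2, Tyk2, Stat3 and Irf2 had log2 fold changes of 0.00, 0.34, -0.28, -0.11 and 0.29, and Socs1, Socs3, Ptpn2 and Pias1, which restrain the pathway, of 0.64, -0.37, -0.01 and -0.02. Of 17 adaptors and factors that induce interferon, 15 were tested and 0 passed.

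A longer list of 53 other interferon-stimulated genes, outside the 45, had medians on the same log2 scale of 1.08, 1.33, -0.48, -0.16 and 0.20 in double-knockout libraries 1 to 5. Of the 51 tested, 2 rose and 0 fell (6.76% and 6.54% of all genes), a smaller share higher than among all genes, and the median log2 fold change was 0.55. Libraries 1 and 2 were both above the Smad4Vil-KO range for 45 of the 51 (25.6% of all genes), libraries 3 and 4 both below it for 23 (23.8%), and both held for 21 (2.04%). Ifit1bl1, a related copy of Ifit1, rose from 450.4, 492, 413 and 582 CPM to 1367, 2315, 635, 971 and 1033 CPM (log2 fold change 1.38 ± 0.31 (SE), adjusted p = 0.0171, edgeR). Epsti1 rose from 64.7, 62.9, 64.9 and 71.8 CPM to 116, 119, 76.6, 82.5 and 81.0 CPM (log2 fold change 0.53 ± 0.14 (SE), adjusted p = 0.0354, edgeR). In both, all 5 double-knockout libraries were above the Smad4Vil-KO range (8.34% of all genes). The same held for Pml, which did not pass the test.

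Markers of other cells, besides the leukocyte markers given with Irf8, were looked at in the same libraries. Of 10 stromal and endothelial markers 7 were tested and 0 passed, with sums of 28.1 to 42.6 CPM and 39.2 to 72.9 CPM. All 8 epithelial markers were tested and 0 passed, with sums of 12166 to 14761 CPM over the 9 libraries. Of 11 genes of small intestinal enterocytes 9 were tested and 8 rose, against 6.76% of all genes (Apoa1, Mttp, Enpep, Sis, Anpep, Slc10a2, Fabp6 and Npc1l1). The summed CPM of the list was 181 to 282 in Smad4Vil-KO and 1019, 1281, 735, 1388 and 359 in the double-knockout libraries, each above that range. The part of any of these in the results was not tested.

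The fit was repeated with libraries left out, the pairs being chosen after the values had been seen. Without double-knockout libraries 1 and 2, 4 of the 45 genes were higher and 4 lower (7.21% and 7.52% of all genes), and the median log2 fold change was -0.14. The 4 higher genes were Ifit1, Ifit3, Irf8 and Tbk1, and the 4 lower ones Dhx58, Ifi44, Oas1g and Oas2. Ifit2 was then at a log2 fold change of 0.84 (adjusted p = 0.0882, edgeR). Without libraries 3 and 4, 24 were higher and 0 lower (4.78% and 3.75% of all genes), with a median of 1.01, and Isg15, Mx1, Gbp2, Rsad2 and Usp18 were among them. The libraries without Y-linked counts, that is with no more than 100, were all 4 of Smad4Vil-KO and double-knockout libraries 3 and 4. These gave Ifit1, Irf8 and Tbk1 as the 3 higher and 19 lower. The 19 included Stat2, Irf7, Irf9, Ddx58, Oas1a, Oas2, Oas3 and Bst2. Without library 1 of the double knockout 2 genes were higher, Ifit1 and Irf8, and 0 lower (5.63% and 5.4% of all genes). Without library 2 there were 3 higher, Ifit1, Irf8 and Tbk1, and 0 lower (5.4% and 5.64% of all genes). Without library 4 the counts were 6 and 0 (4.55% and 4.31%), and without library 5 they were 7 and 0 (9.52% and 9.08%).

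**Figure D5:**
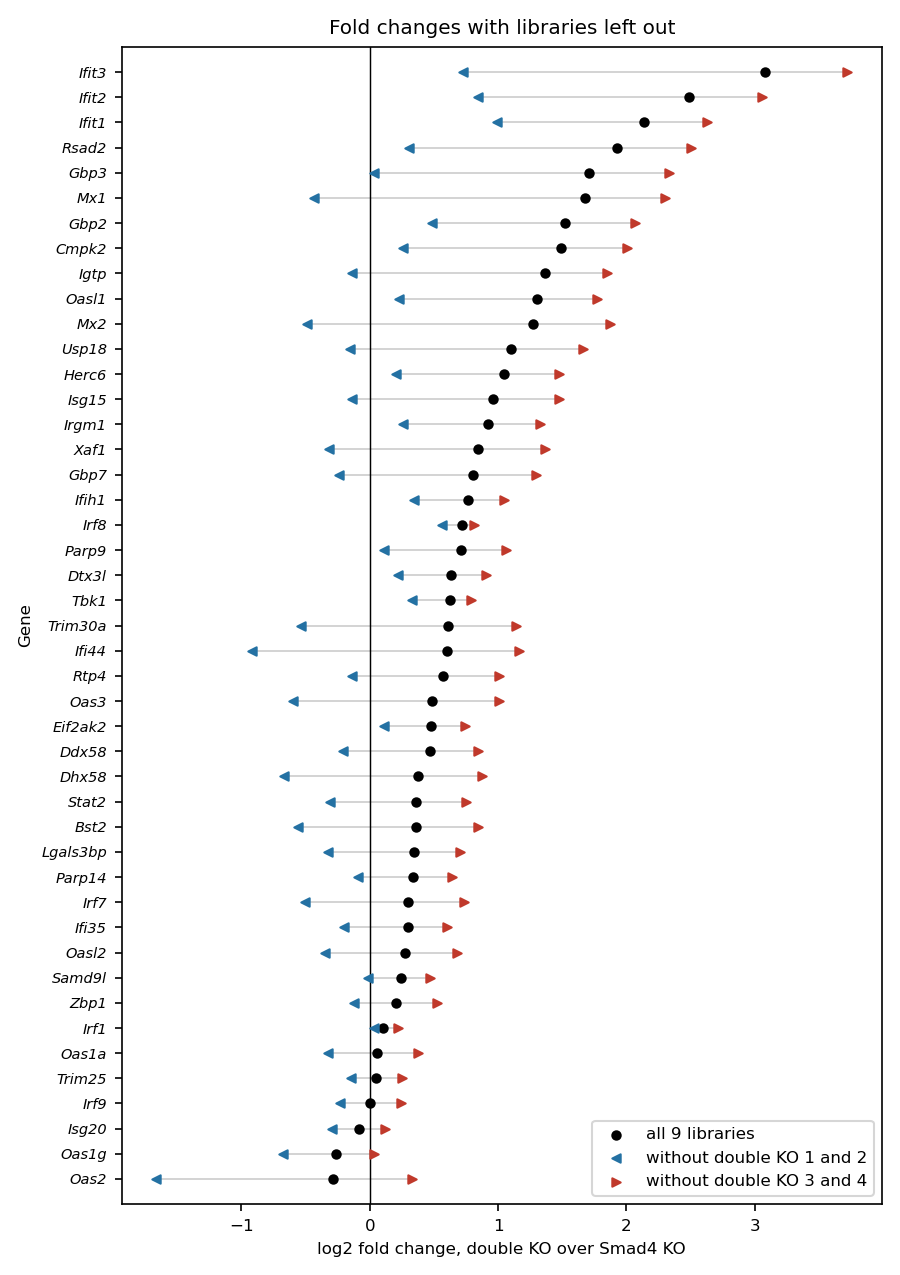
Log2 fold change of each gene, double knockout over Smad4Vil-KO, from all 9 libraries (black), without double-knockout libraries 1 and 2 (blue, pointing left) and without libraries 3 and 4 (red, pointing right). The median moves from 0.61 to -0.14 and to 1.01, and Irf8 stays between 0.56 and 0.81.

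Irf8 was called in 20 of 20 other fits, with log2 fold changes of 0.56 to 0.81. Ifit1 was called in 15, Tbk1 in 13, Ifit3 in 10 and Ifit2 in 9 of the 20. The log2 fold change of each stayed positive but varied widely. It ran from 0.81 to 2.63 for Ifit1, 0.33 to 0.79 for Tbk1, 0.59 to 3.72 for Ifit3 and 0.64 to 3.06 for Ifit2.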

How the data were processed

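RNA-seq was analysed from IECs of 4 Smad4Vil-KO and 5 double-knockout libraries, grouped by the genotype label. The values the authors deposited are raw counts, whole numbers for each gene symbol. The submitters' processing notes name HISAT2 2.0 and the build mm10. The counting program, its annotation and its use of strand are not given in the sources used here. Of 46095 symbols, 27 had been turned into dates. Totals were 12487129 to 17120202. Libraries of 1 genotype differed beyond sampling noise (chi-square per gene of 10.0 to 70.1 over 16 pairs).

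Genes were filtered with filterByExpr (minimum count 10) of edgeR 4.0.16 in R 4.3.3, scaled with TMM and tested by its quasi-likelihood method on all 9 libraries without covariates, with p-values adjusted over 14593 genes (Benjamini-Hochberg). The common biological coefficient of variation was 21.2%. SE is the size of the log2 fold change divided by the square root of the F statistic, and log2 CPM uses a prior count of 2. The paper states no differential expression tool. The scripts were tested on simulated data. Intervals and floors (3 counts) cover counting error only.

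Alternatives were DESeq2's size factors, library size alone, no filter, at least 10 counts in every library, DESeq2 1.42.0 and limma-voom (limma 3.58.1). Others were each library left out, the replicate number as a block, a term for Y-linked counts, and the libraries without such counts alone. A library was taken to carry Y-linked counts if it held more than 100. Those without double-knockout libraries 1 and 2, or 3 and 4, were added once values had been seen. The 45 genes, the other lists and the alternatives on Y-linked counts were chosen with earlier results of these data known. Every member is named, and of other lists genes with an adjusted p under 0.05 and every ligand, receptor and JAK-STAT gene; CPM per library is given in full for members that were called, did not overlap or had a highest double-knockout library over 10 times the lowest, the last limit and the further members given in full (Ifih1, Gbp2, Isg15 and Isg20) being chosen after values were seen. Of the other lists, 2 genes are not reported here and were left out of list counts and sums. Coordinates and exon lengths are from GENCODE M21 (GRCm38) and promoters from RefSeq (GRCm38.p6).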

Additional observations from a re-analysis of the deposited data

Results flagged for a closer look

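In the Smad4Vil-KO genotype, 5 genes had 1 library that stood apart from the other 3, out of 90 groups examined (45 genes in 2 genotypes). The measure is the gap between the extreme library and its nearest neighbour over the whole range of the group. Chance passes its limit in about 1 of 20 groups, so 5 of 90 is near what chance gives if groups are taken as independent and equally open to a flag. Stat2 in library 1, at 149 CPM, was above its nearest neighbour at 132 CPM (gap over range 0.885). Irf1 in library 2, at 268 CPM, was above its nearest neighbour at 246 CPM (gap over range 0.912). Oas3 in library 1, at 122 CPM, was above its nearest neighbour at 89.8 CPM (gap over range 0.889). Mx2 in library 1, at 8.34 CPM, was below its nearest neighbour at 10.6 CPM (gap over range 0.905). Xaf1 in library 2, at 29.6 CPM, was below its nearest neighbour at 37.0 CPM (gap over range 0.864). No double-knockout group passed the limit.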

How the results depend on the processing

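The count of 5 genes higher held with DESeq2's size factors (6.97% of all genes), with library size alone (6.76%) and with a minimum of 10 counts in each library (6.39%). It was 8 with no filter on low counts (3.37% of 26890 genes tested), 8 with DESeq2 (10% of all genes), 3 with limma-voom (6.37%), 1 with a term for Y-linked counts (4.47%), 3 in the libraries without Y-linked counts (9.29%), 24 without double-knockout libraries 3 and 4 (4.78%), and 1 to 13 with each library left out (3.06% to 9.52%). The count lower became 4 with the Y-linked term (4.33%), 19 in the libraries without Y-linked counts (10.1%), and 4 without libraries 1 and 2 (7.52%), and the median log2 fold change became -0.43, -0.43 and -0.14. With each library left out the median stayed between 0.34 and 0.79. Genes above in every double-knockout library numbered 3 to 11 with each library left out (9.36% to 12.6% of all genes; 11 without double-knockout library 3, at 10.2%) and 24 without libraries 3 and 4 (12.3%), and genes below in every one numbered 26 in the libraries without Y-linked counts (23.2%) and 3 without libraries 1 and 2 (13.9%). The causes were not tested. For the genotype difference, the fit with a Y-linked term and that of the libraries without such counts both rest on double-knockout libraries 3 and 4. Leaving out libraries lowers the number of samples, which alone can end calls.

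With the replicate number as a block, 3 genes were higher (Ifit1, Irf8 and Tbk1), against 5.39% of all genes. Libraries sharing a number did not deviate together (correlations of -0.096, -0.10, 0.020 and 0.088 for numbers 1 to 4), so the numbers were not taken to pair them.

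Log2 fold changes of single genes turned sign as follows. With no filter this was Irf9 -0.0180, with limma-voom Irf9 -0.0352 and Oas1a -0.0181, and with the replicate block Irf9 -0.0738 and Oas1a -0.0458. With a term for Y-linked counts, values were Ddx58 -0.333, Dhx58 -0.983, Zbp1 -0.440, Stat2 -0.489, Irf9 -0.445, Irf7 -0.768, Irf1 -0.0732, Oas1a -0.587, Oas3 -1.04, Oasl2 -0.664, Mx1 -0.628, Mx2 -0.768, Gbp2 -0.133, Gbp3 -0.637, Gbp7 -0.520, Irgm1 -0.00262, Isg15 -0.470, Usp18 -0.599, Trim25 -0.302, Trim30a -0.876, Parp9 -0.0317, Parp14 -0.261, Bst2 -0.909, Eif2ak2 -0.0132, Samd9l -0.155, Rtp4 -0.496, Xaf1 -0.651, Ifi35 -0.325, Ifi44 -1.15 and Lgals3bp -0.434. In the libraries without Y-linked counts they were Ddx58 -0.329, Dhx58 -0.978, Zbp1 -0.436, Stat2 -0.485, Irf9 -0.441, Irf7 -0.765, Irf1 -0.0690, Oas1a -0.583, Oas3 -1.04, Oasl2 -0.661, Mx1 -0.624, Mx2 -0.763, Gbp2 -0.128, Gbp3 -0.633, Gbp7 -0.515, Isg15 -0.467, Usp18 -0.596, Trim25 -0.297, Trim30a -0.873, Parp9 -0.0274, Parp14 -0.256, Bst2 -0.904, Eif2ak2 -0.00876, Samd9l -0.150, Rtp4 -0.494, Xaf1 -0.648, Ifi35 -0.321, Ifi44 -1.15 and Lgals3bp -0.431. Without double-knockout libraries 1 and 2 they were Ddx58 -0.207, Dhx58 -0.668, Zbp1 -0.123, Stat2 -0.313, Irf9 -0.231, Irf7 -0.503, Oas1a -0.323, Oas3 -0.598, Oasl2 -0.351, Mx1 -0.438, Mx2 -0.491, Gbp7 -0.240, Igtp -0.136, Isg15 -0.141, Usp18 -0.154, Trim25 -0.148, Trim30a -0.533, Parp14 -0.0910, Bst2 -0.563, Samd9l -0.0106, Rtp4 -0.138, Xaf1 -0.317, Ifi35 -0.202, Ifi44 -0.918 and Lgals3bp -0.327. Without libraries 3 and 4 they were Oas1g 0.0339, Oas2 0.328 and Isg20 0.119. With each library left out in turn, genes that crossed 0 ranged as Dhx58 -0.0115 to 0.593, Irf9 -0.0949 to 0.125, Irf7 -0.0215 to 0.501, Oas1a -0.125 to 0.205, Trim25 -0.0689 to 0.139, Bst2 -0.0157 to 0.579, Isg20 -0.195 to 0.00199 and Ifi44 -0.280 to 0.867.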

Other observations

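The genes in these paragraphs were chosen after their values were seen. Of the 15 adaptors and factors that induce interferon that were tested, 7 had double-knockout libraries 1 and 2 above the Smad4Vil-KO range (25.6% of all genes). Nlrc5, at 121 and 148 CPM against 47.7 to 62.4 CPM, and Trex1, at 51.5 and 55.5 CPM against 9.94 to 11.8 CPM, were among them. The other way, 3 genes of the list were lowest in double-knockout libraries 1 and 2. Mavs, the mitochondrial adaptor of the RNA sensors, was at 76.2, 75.1, 76.6 and 60.3 CPM in Smad4Vil-KO and 29.4, 32.2, 66.8, 57.5 and 64.5 CPM in the double knockout (adjusted p = 0.16, edgeR). Ikbke, the kinase related to Tbk1, was at 66.6, 63.6, 67.2 and 67.6 CPM and 24.4, 31.6, 52.5, 46.4 and 59.9 CPM (adjusted p = 0.0817, edgeR). All 5 double-knockout libraries were below the others for Ikbke, as for 8.87% of all genes. Irf3, the factor that Tbk1 phosphorylates, was at 64.5, 76.3, 82.7 and 73.0 CPM and 44.9, 39.4, 73.7, 72.6 and 66.5 CPM (adjusted p = 0.262, edgeR). None of the 3 passed the test.

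Ifi204, a DNA-binding interferon-inducible gene, was at 0.449, 0.654, 0.676 and 1.03 CPM in Smad4Vil-KO and 21.6, 28.5, 0.769, 1.10 and 0.698 CPM in the double knockout, so that it was near 0 outside libraries 1 and 2 (adjusted p = 0.056, edgeR). Ifi27, a mitochondrial protein gene, was lowest in libraries 1 and 2, at 11.1, 9.39, 26.5, 25.9 and 36.7 CPM against 34.9 to 44.8 CPM (adjusted p = 0.135, edgeR).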
